A study of Mus musculus with 48 samples.

Results

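Glutathione S-transferases (Gst), UDP-glucuronosyltransferases (Ugt) and sulfotransferases (Sult) were followed in the livers of mice that overexpress the starvation hormone FGF21, of calorically restricted mice and of fasted mice. Members were all genes whose symbol on the array begins with Gsta, Gstk, Gstm, Gsto, Gstp, Gstt, Gstz, Ugt or Sult followed by a number, which gave 49 of the 16593 named genes: 21 Gst, 16 Ugt and 12 Sult. Of these, 36 were detected on enough liver arrays to be tested, 19 Gst, 10 Ugt and 7 Sult, among 8902 genes tested in all. RNA had been hybridized to Illumina MouseRef-8 arrays, and the liver data used here come from 14 arrays, 3 of FGF21-Tg mice, 3 of wild-type mice, 2 of caloric restriction, 3 of fasted mice and 3 of mice fed ad libitum. All mice were C57Bl/6J and 3 months old. FGF21-Tg mice (genotype ApoE-FGF21-Tg) carry the transgene under the apoE promoter in hepatocytes and, like their wild-type controls, ate ad libitum. The other 3 groups were wild-type: fasted mice had no food for 24 hr, and restricted mice were under a diet labelled as 40% restriction for 2 weeks, whereas the methods describe food equal to 40% of earlier intake. Restricted mice were killed shortly before their daily meal, so restriction and time since the last meal cannot be told apart. A replicate holds cRNA of 1 to 3 mice, and replication is therefore counted in arrays. The mice on the arrays were male.

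These 3 enzyme families carry out conjugation, the step of drug, steroid and bile acid metabolism in which a polar group is attached to a molecule so that it can leave the cell. Gst enzymes attach glutathione to electrophiles, Ugt enzymes attach a sugar, mostly glucuronic acid, from a UDP-sugar, and Sult enzymes attach sulfate from the donor PAPS. In the liver they are expressed mainly by hepatocytes and many differ between male and female mice or respond to nuclear receptors.

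The signals of a probe are given on the log2 scale after background correction and quantile normalization, and levels of different probes cannot be set against each other. A probe was called detected at a detection p under 0.05. Of the 6 hepatocyte markers, 5 were detected on the liver arrays of every group (the Fgb probe was not), and none of the 6 skeletal muscle markers was. Replicates 3 and 4 labelled as restricted liver read 15.91 and 15.90 for the adipocyte gene Adipoq, against 5.13 to 6.06 on the other 14 liver arrays, and were left out. Fgf21 itself read 15.97, 15.97 and 15.84 in FGF21-Tg and 7.70, 7.69 and 9.12 in wild-type liver, 6.83 and 7.38 under restriction, 10.30, 10.25 and 10.13 after fasting and 7.34, 8.42 and 7.68 in ad libitum mice. The mean log2 signal of 2 erythroid markers was 11.04 to 12.38 on FGF21-Tg arrays and 13.07 to 13.30 on wild-type arrays. It was 11.00 to 11.12 under caloric restriction, 12.36 to 12.64 after fasting and 13.40 to 13.46 in ad libitum mice. In FGF21-Tg liver Alas2 was called (-2.52) and Hba-a1 was not (-0.31). Both were called under restriction (-3.09 and -1.62), and only Alas2 after fasting (-1.29, with Hba-a1 at -0.60). Of 5 macrophage markers Cd5l was not detected in any group. Their mean log2 signal was 8.52 to 9.65 in FGF21-Tg and 8.51 to 8.82 in wild-type liver. It was 8.21 to 8.22 under caloric restriction, 7.59 to 8.40 after fasting and 8.09 to 8.91 in ad libitum mice. Clec4f (-1.64 and -1.01) and Adgre1 (-1.34 and -1.03) were called lower under restriction and after fasting. Marco (1.56 and -0.05) and Vsig4 (-0.49 and -0.86) were not called. Stellate cell markers averaged 7.51 to 8.16 in FGF21-Tg and 7.12 to 7.63 in wild-type liver. They averaged 6.75 to 6.87 under restriction, 6.97 to 7.12 after fasting and 7.35 to 7.61 in ad libitum mice. Col3a1 was called lower under restriction, where it was not detected on any array, and after fasting (-1.54). Des (-0.10 and -0.03) and Reln (-0.75 and -0.37) were not called under restriction and after fasting. Lrat, not detected in either diet group, was not called. Of 5 tested endothelial markers Lyve1 alone was called after fasting (1.76), and the list median was -0.19. Pecam1 was at 0.99, and Cdh5, Eng and Stab2 were at -0.19, -0.23 and -0.22. Defb1, the only tested gene of the epididymis list, was called in both diets (1.08 and 1.19). The part of these cell types in the results was not tested, and in whole tissue fewer cells of a type and less RNA per cell cannot be told apart.

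In FGF21-Tg liver, 6 of the 36 tested members differed by more than 2-fold at an adjusted p under 0.10 (limma, Benjamini-Hochberg adjustment over all tested genes), against 1.7% of all genes (0.887% upward and 0.809% downward). The sulfotransferase Sult1d1 rose, and Gstp1, Ugt2b1, Ugt3a1, Sult2a8 and Sult5a1 fell. By class, 1 of 19 Gst, 2 of 10 Ugt and 3 of 7 Sult members were called. The median log2 fold change was 0.01 over the Gst, -0.05 over the Ugt, 0.50 over the Sult members and 0.00 over all genes.

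**Figure D1:**
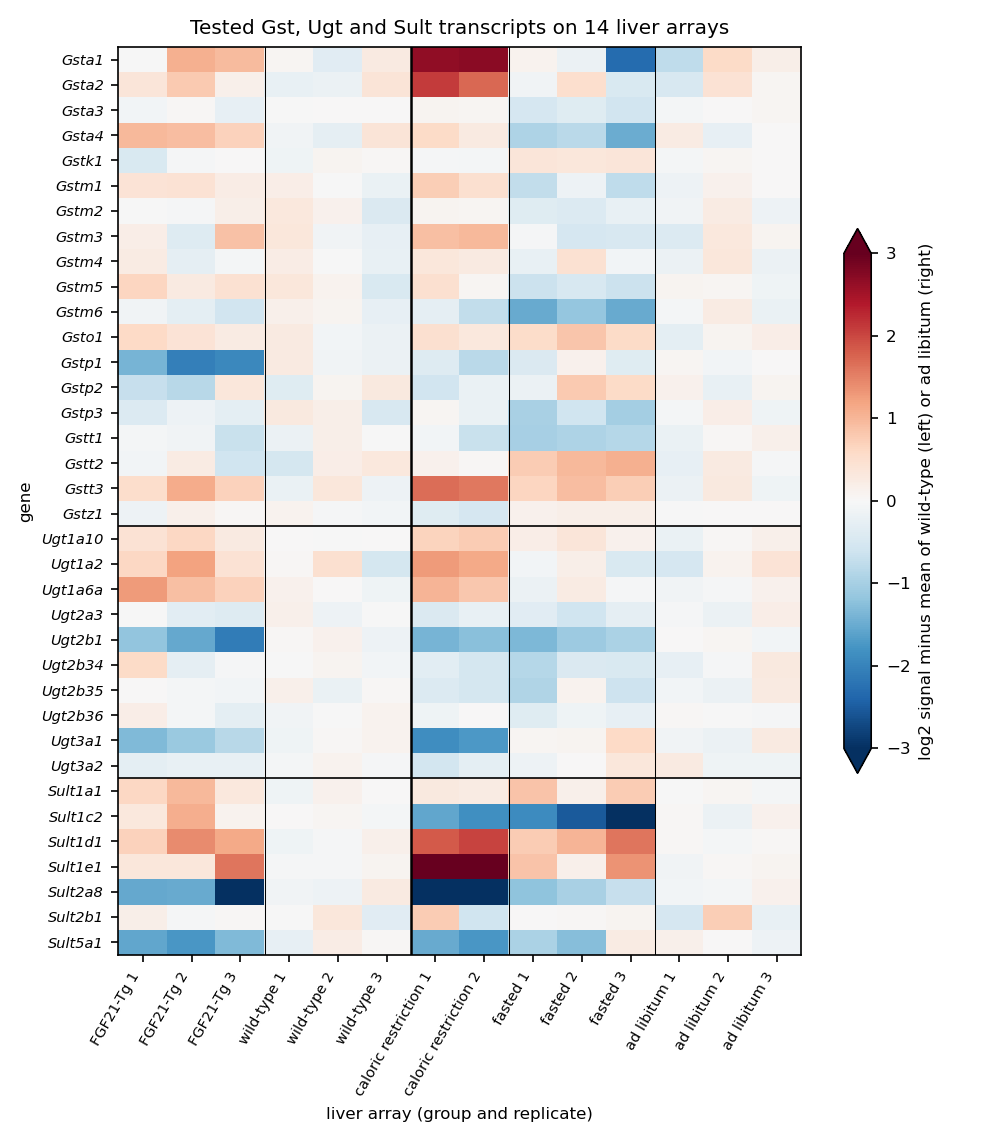
Log2 signal of the 36 tested members (rows, grouped as Gst, Ugt and Sult) on the 14 liver arrays (columns), minus the mean of the 3 wild-type arrays for FGF21-Tg and wild-type columns and minus the mean of the 3 ad libitum arrays for the others; colours saturate at 3. Ugt2b1 is lower and Sult1d1 higher in all 3 tested conditions, and the 2 restriction columns are strongly coloured in Sult1e1, Sult2a8 and Gsta1, as is Sult2a8 on FGF21-Tg array 3.

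Among the sulfotransferases, Sult1d1, which sulfates catecholamines and other phenols, had log2 signals of 12.03, 12.75 and 12.48 on the FGF21-Tg arrays and 11.20, 11.31 and 11.50 on the wild-type arrays. The groups did not overlap. Its log2 fold change was 1.08 (standard error, SE, 0.22, limma adjusted p = 0.0172), and the call was lost without FGF21-Tg replicate 2. Sult2a8, of the subfamily that sulfates hydroxysteroids and bile acids, read 12.33, 12.37 and 10.75 in FGF21-Tg and 13.77, 13.72 and 14.14 in wild-type liver. All FGF21-Tg arrays lay below all wild-type arrays, and replicate 3 lay furthest down. The log2 fold change was -2.05 (SE 0.33, limma adjusted p = 0.00464). Sult5a1, whose substrates are little known, was at 6.31, 6.12 and 6.54 in FGF21-Tg and 7.63, 8.09 and 7.90 in wild-type liver, again without overlap. It fell by 1.55 on the log2 scale (SE 0.30, limma adjusted p = 0.0142). Its second probe, detected on 6 of the 14 arrays, gave -0.45. On the probe used, the change was -0.13 with the deposited log2 values and -0.67 without background correction, and not called in either.

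Sult1e1, the estrogen sulfotransferase, was detected on 1 FGF21-Tg array (6.61) and on no wild-type array, with an adjusted p of 0.232. Sult1a1, the main phenol sulfotransferase, read 14.96, 15.30 and 14.64 in FGF21-Tg and 14.20, 14.47 and 14.33 in wild-type liver and also missed the threshold (adjusted p = 0.112), although its groups did not overlap.

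Of the glucuronosyltransferases, Ugt2b1 belongs to the subfamily that glucuronidates steroids and bile acids. Its signals were 12.06, 11.71 and 11.16 in FGF21-Tg and 13.28, 13.37 and 13.09 in wild-type liver, with no overlap. The log2 fold change was -1.61 (SE 0.20, limma adjusted p = 0.000443). The other tested Ugt2b members, Ugt2b34, Ugt2b35 and Ugt2b36, stayed between -0.05 and 0.09, none of them called. Ugt3a1, whose human counterpart transfers N-acetylglucosamine rather than glucuronic acid, read 11.92, 12.15 and 12.43 in FGF21-Tg and 13.12, 13.28 and 13.35 in wild-type liver. The groups were apart by 0.70, and the change was -1.09 (SE 0.19, limma adjusted p = 0.00699). Without FGF21-Tg replicate 1 this call was lost. Its neighbour Ugt3a2 had a log2 fold change of -0.24 and was not called.

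The 3 Ugt1a members, which share their last exons and include enzymes for phenols, had positive log2 fold changes of 0.44 for Ugt1a10, 0.75 for Ugt1a2 and 0.95 for Ugt1a6a, none over 2-fold. Ugt1a6a had an adjusted p of 0.00925 and signals of 12.26, 11.89 and 11.68 in FGF21-Tg against 11.12, 10.99 and 10.87 in wild-type liver. The other 2 detected probes of Ugt1a6a gave -0.43 and -0.19, so the probes disagree in sign.

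Gstp1, the pi-class enzyme that is abundant in the liver of male mice, was the single Gst called in FGF21-Tg mice. It read 14.38, 13.74 and 13.85 in FGF21-Tg and 16.05, 15.68 and 15.61 in wild-type liver, with a gap of 1.23 between the groups. The log2 fold change was -1.79 (SE 0.21, limma adjusted p = 0.000253), with a wild-type mean of 15.78 near the ceiling of the arrays. The other 2 probes of Gstp1 gave -1.52 and -1.96. Gstp2 (-0.39) and Gstp3 (-0.29), which lie beside Gstp1 on chromosome 19, were not called. Gsta4, which clears the lipid peroxidation product hydroxynonenal, had a log2 fold change of 0.86 (adjusted p = 0.0545), and the theta-class Gstt3 of 0.77 (adjusted p = 0.0578), both under 2-fold. Within the mu class the 6 tested members stayed between -0.33 and 0.47 on the probe used, while the second probe of Gstm6 gave -0.74.

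All FGF21-Tg arrays were on chip 5, which also held wild-type replicate 3, while wild-type replicates 1 and 2 were on chip 4. Blocked by chip, so that the contrast rests on chip 5, the log2 fold changes were -1.62 for Gstp1, -2.32 for Sult2a8, -1.45 for Ugt2b1 and -1.18 for Ugt3a1 (adjusted p = 0.0305, 0.0546, 0.0434 and 0.0961 in this order). Sult1d1 (0.92, adjusted p = 0.289) and Sult5a1 (-1.58, adjusted p = 0.187) then missed the threshold.

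**Figure D2:**
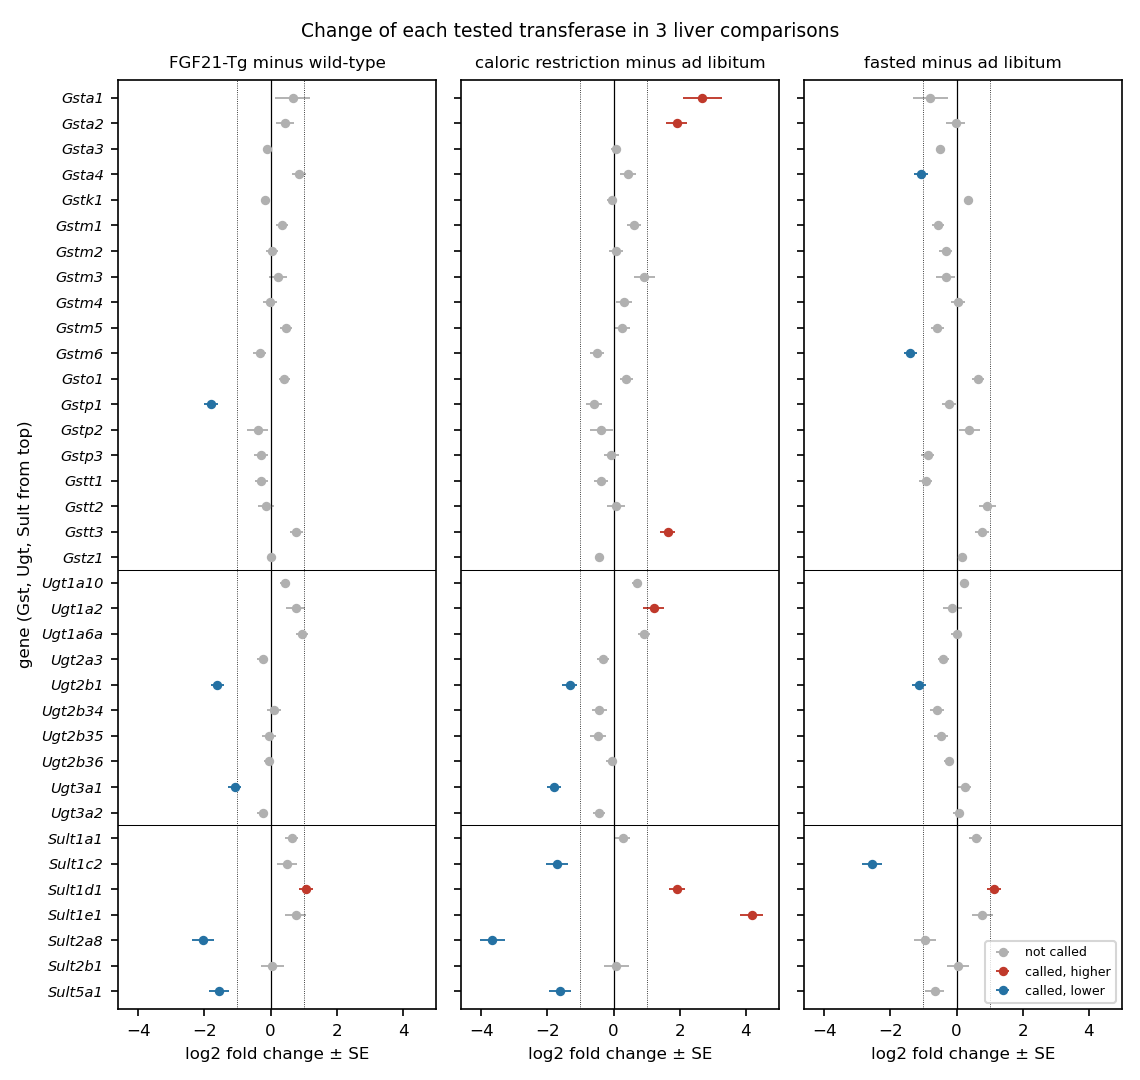
Log2 fold change (x axis, points, with SE as bars) of each tested member (y axis) in FGF21-Tg against wild-type, caloric restriction against ad libitum and fasted against ad libitum liver; dotted lines mark 2-fold. Red and blue points passed the threshold upward and downward, 6, 11 and 5 members in the 3 panels.

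Under caloric restriction, 11 of the 36 members were called, 6 upward and 5 downward, against 8.59% of all genes (3.7% upward and 4.9% downward). At an adjusted p under 0.10 alone 17 members passed, against 26.5% of all genes. Sult1e1, Sult1d1, Gsta1, Gsta2, Gstt3 and Ugt1a2 rose, and Sult2a8, Ugt3a1, Sult1c2, Sult5a1 and Ugt2b1 fell. By class the calls were 3 of 19 Gst, all upward, 3 of 10 Ugt and 5 of 7 Sult members, with median log2 fold changes of 0.08, -0.37 and 0.08 beside 0.00 over all genes.

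The estrogen sulfotransferase Sult1e1 read 9.25 and 9.30 in restricted liver and was not detected on any of the 3 ad libitum arrays (4.99, 5.14 and 5.18). It was at least 10.2-fold higher under restriction (limma adjusted p = 7.18e-06). Sult1d1, its neighbour on chromosome 5, stood at 13.34 and 13.52 in restricted and 11.53, 11.44 and 11.53 in ad libitum liver. The log2 fold change was 1.93 (SE 0.24, limma adjusted p = 0.000151), with a gap of 1.81 between the groups. Sult2a8 showed the largest fall of any member, at 10.26 and 10.43 in restricted and 13.92, 13.96 and 14.14 in ad libitum liver. Its log2 fold change was -3.66 (SE 0.37, limma adjusted p = 2.77e-05), with the groups apart by 3.49. Sult1c2, a phenol-type sulfotransferase, read 7.86 and 7.57 in restricted and 9.46, 9.24 and 9.55 in ad libitum liver, without overlap. It fell by 1.70 on the log2 scale (SE 0.34, limma adjusted p = 0.00344), and Sult5a1 fell by 1.63 (SE 0.33, limma adjusted p = 0.00407). With the deposited log2 values Sult1e1 (0.50), Sult1c2 (-0.39) and Sult5a1 (-0.15) kept their direction but were not called. Without background correction Sult5a1 (-0.75) was not called either.

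Ugt3a1 read 11.22 and 11.36 in restricted and 12.99, 12.92 and 13.35 in ad libitum liver, with no overlap. Its log2 fold change was -1.80 (SE 0.21, limma adjusted p = 7.66e-05). Ugt2b1 was at 12.15 and 12.29 under restriction and 13.56, 13.62 and 13.47 in ad libitum mice, a log2 fold change of -1.33 (SE 0.22, limma adjusted p = 0.00119). Both members were thus lower than in controls on every array, as in FGF21-Tg liver. Ugt1a2 rose by 1.21 (SE 0.33, limma adjusted p = 0.0192), a call lost without restriction replicate 1 or ad libitum replicate 1. It was also lost with the deposited log2 values (0.28) and without background correction (0.82). Ugt1a10 (0.71) and Ugt1a6a (0.92) had adjusted p-values of 0.00751 and 0.00443 but changes under 2-fold, and the other 2 detected probes of Ugt1a6a gave 0.24 and -0.02.

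The alpha-class Gsta1 and Gsta2, inducible enzymes of closely related sequence, rose together. Gsta1 read 10.39 and 10.43 in restricted and 6.96, 8.32 and 7.92 in ad libitum liver, where the controls were widely spread. Its log2 fold change was 2.68 (SE 0.59, limma adjusted p = 0.00653). Gsta2 read 11.14 and 10.77 in restricted and 8.56, 9.47 and 9.09 in ad libitum liver, a log2 fold change of 1.91 (SE 0.32, limma adjusted p = 0.00111). Neither pair of groups overlapped. How far each probe also binds the other transcript was not tested, and with the deposited log2 values Gsta1 (0.92) was not called. Gstt3 was at 14.01 and 13.91 in restricted and 12.16, 12.63 and 12.20 in ad libitum liver, and rose by 1.63 (SE 0.22, limma adjusted p = 0.000254). Gsta3, a further alpha-class enzyme, lay near the ceiling on the probe used (15.91 and 15.89 in restricted and 15.77, 15.85 and 15.89 in ad libitum liver). On that probe a rise could not have been measured. A second probe of Gsta3, detected on all 14 liver arrays with a mean of 11.14, gave -0.21 under restriction. It gave -0.32 in FGF21-Tg liver and -0.98 after fasting. The other Gst members stayed within 2-fold on the probe used, from -0.60 for Gstp1 to 0.93 for Gstm3, while the second probe of Gstm6 gave -1.16.

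With the 2 arrays that carried Adipoq included, 13 members were called under restriction, of which 6 were among the 11 (Sult1c2, Sult1e1, Sult2a8, Sult5a1, Ugt2b1 and Ugt3a1). The changes of Gsta2 (-0.65), Gstt3 (-0.31), Sult1d1 (-1.77) and Ugt1a2 (-0.93) then turned negative, none of them called.

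**Figure D3:**
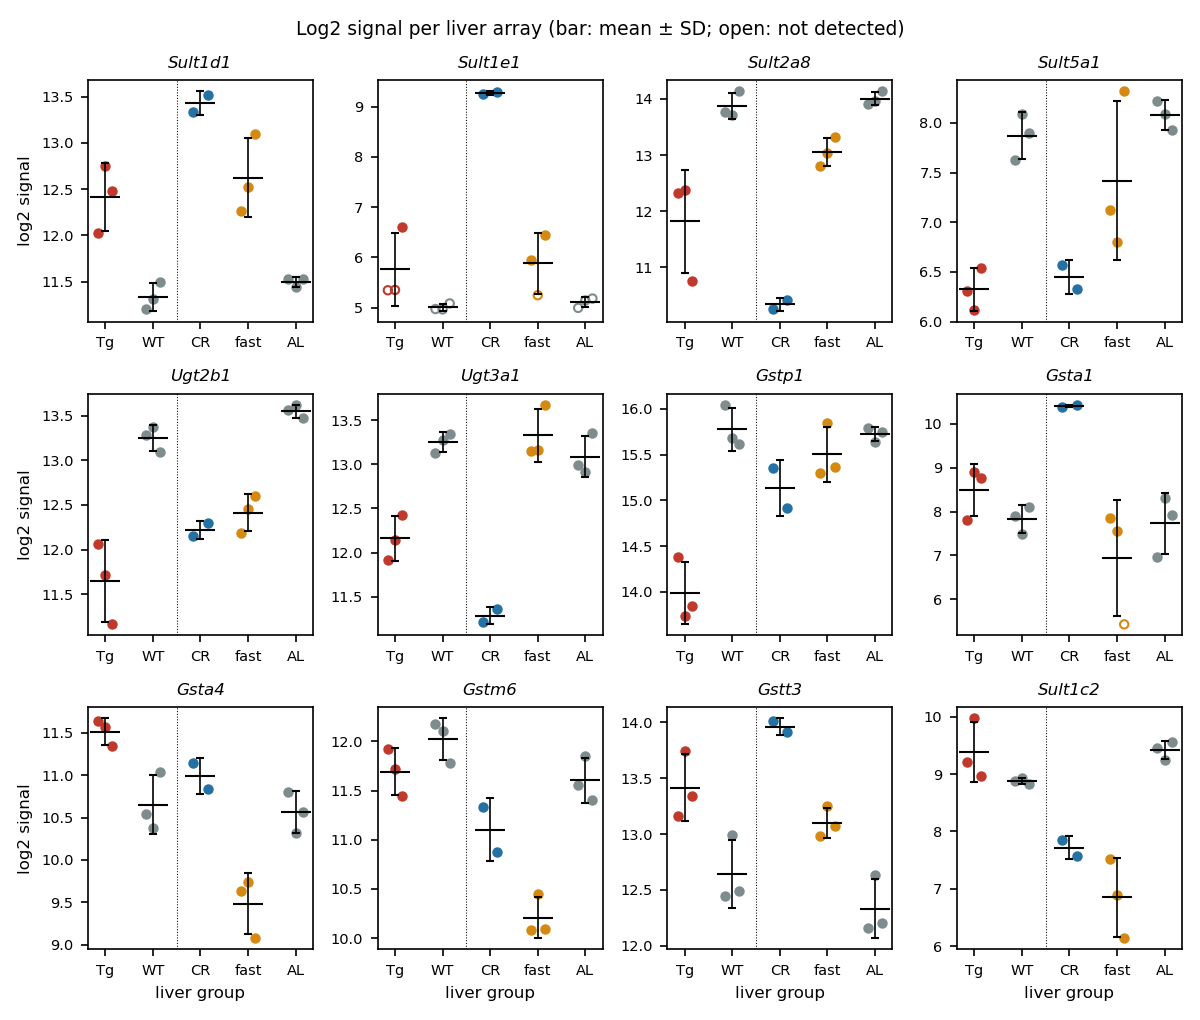
Log2 signal (y axis, a separate range for each gene) of 12 members on each liver array, by group from left to right FGF21-Tg (Tg), wild-type (WT), caloric restriction (CR), fasted (fast) and ad libitum (AL); bars are the mean and SD, and open points were not detected. Sult2a8 was lowest under restriction (10.26 and 10.43), whereas Gsta4 and Gstm6 were lowest after fasting.

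After a 24 hr fast, 5 of the 36 members were called, against 5.48% of all genes (2.24% upward and 3.25% downward). Sult1d1 rose, and Sult1c2, Gstm6, Ugt2b1 and Gsta4 fell. At an adjusted p under 0.10 whatever the size of the change, 16 members passed (18% of all genes), 5 upward (8.34%) and 11 downward (9.62%). The median log2 fold change over the members was -0.23, with -0.33 over the Gst, -0.18 over the Ugt and 0.05 over the Sult members, beside 0.00 over all genes.

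Sult1c2 had the strongest response to fasting, at 7.52, 6.90 and 6.14 in fasted and 9.46, 9.24 and 9.55 in ad libitum liver. The groups lay 1.72 apart, and the change was -2.56 (SE 0.30, limma adjusted p = 9.42e-05), or -0.46 and not called with the deposited log2 values. Sult1d1 read 12.26, 12.52 and 13.10 in fasted and 11.53, 11.44 and 11.53 in ad libitum liver and rose by 1.13 (SE 0.22, limma adjusted p = 0.00359), a call lost without fasted replicate 3. Ugt2b1 read 12.19, 12.45 and 12.60 after fasting and 13.56, 13.62 and 13.47 in ad libitum mice, again without overlap. Its log2 fold change was -1.14 (SE 0.20, limma adjusted p = 0.00199). Sult1d1 and Ugt2b1 were called in all 3 comparisons, each in the same direction throughout. Calls common to all 3 were not counted over all genes, so this is a description of these members. Fasting and caloric restriction share the ad libitum arrays.

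Among the Gst members, Gstm6 of the mu class read 10.09, 10.45 and 10.09 in fasted and 11.56, 11.85 and 11.40 in ad libitum liver. Every fasted array lay below every control, and the log2 fold change was -1.40 (SE 0.19, limma adjusted p = 0.000298). A second probe of Gstm6 gave -1.46. Gsta4 read 9.63, 9.74 and 9.08 in fasted and 10.81, 10.31 and 10.57 in ad libitum liver and fell by 1.08 (SE 0.22, limma adjusted p = 0.00507). This call was lost without fasted replicate 3 or ad libitum replicate 1. It was also lost with the deposited log2 values (-0.63) and without background correction (-0.91). Of the theta class, Gstt1, which activates dihalomethanes, had -0.93 (adjusted p = 0.00664), while Gstt3 had 0.77 (adjusted p = 0.0202) and Gstt2 0.93 (adjusted p = 0.0226), all under 2-fold. The pi-class Gstp3 had -0.87 (adjusted p = 0.0119), and Gsto1, which reduces dehydroascorbate, 0.66 (adjusted p = 0.0241).

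Sult2a8 read 12.80, 13.04 and 13.32 in fasted and 13.92, 13.96 and 14.14 in ad libitum liver, a log2 fold change of -0.95 (SE 0.33, adjusted p = 0.0806) and so under 2-fold. Ugt3a1 was at 13.15, 13.16 and 13.68 in fasted and 12.99, 12.92 and 13.35 in ad libitum liver, where the groups overlapped (adjusted p = 0.451). Sult1e1 was detected on 2 of the 3 fasted arrays (5.95 and 6.45) and on none of the ad libitum arrays, with an adjusted p of 0.135.

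The difference between restricted and fasted liver passed the threshold in 9 of 36 members, against 4.68% of all genes. Under restriction 7 were higher (1.97% of all genes) and 2 lower (2.72%), or 2 and 2 with the deposited log2 values, and at an adjusted p under 0.10 alone 21 members passed (17% of all genes). Of the alpha and mu classes, Gsta1 (3.47), Gsta2 (1.94), Gsta4 (1.50), Gstm1 (1.17) and Gstm3 were higher under restriction. Gsta4 read 11.14 and 10.84 in restricted and 9.63, 9.74 and 9.08 in fasted liver (limma adjusted p = 0.00196). Gstm1, a mu-class enzyme, read 14.90 and 14.65 in restricted and 13.42, 14.01 and 13.40 in fasted liver (limma adjusted p = 0.00313). Gsta1 was detected on 2 of the 3 fasted arrays (7.85 and 7.56) and not on replicate 3 (5.42). Gstm3 was not detected on any fasted array and was at least 1.71-fold higher under restriction. Sult1e1 (3.39) and Ugt1a2 (1.33) were also higher under restriction, and Sult2a8 (-2.71) and Ugt3a1 (-2.04) lower. The calls of Gstm3 and Ugt1a2 were lost without either restriction array. With the deposited log2 values Gsta1 (0.98), Gsta4 (0.99), Gstm3 (0.06), Sult1e1 (0.46) and Ugt1a2 (0.30) were not called. Without background correction Gstm3 and Ugt1a2 (0.90) were not called either. For Ugt2b1 the difference was -0.19, with a 95% confidence interval of -0.67 to 0.29.

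Of the 6 members called in FGF21-Tg liver, 5 were called in the same direction under caloric restriction (83.3% of the FGF21-Tg and 45.5% of the restriction calls), Sult1d1 upward and Sult2a8, Sult5a1, Ugt2b1 and Ugt3a1 downward. Over all genes 95 were called in the same direction in both, 62.9% of 151 and 12.4% of 765. Of the 6, 2 were called in the same direction after fasting, Sult1d1 and Ugt2b1 (over all genes 62, or 41.1% of 151). Across the 36 members the FGF21-Tg and restriction changes had a Pearson correlation of 0.75 and a Spearman correlation of 0.81, and 30 had the same sign. Across all 8902 genes the values were 0.35 and 0.19, with 55.1% of the same sign. For fasting, the members gave 0.26 and 0.28, with 20 of the same sign, and all genes 0.17 and 0.02, with 49.3% of the same sign. These correlations are across genes, which are not independent replicates. The 2 comparisons have separate control arrays but share 1 normalization and fit.

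**Figure D4:**
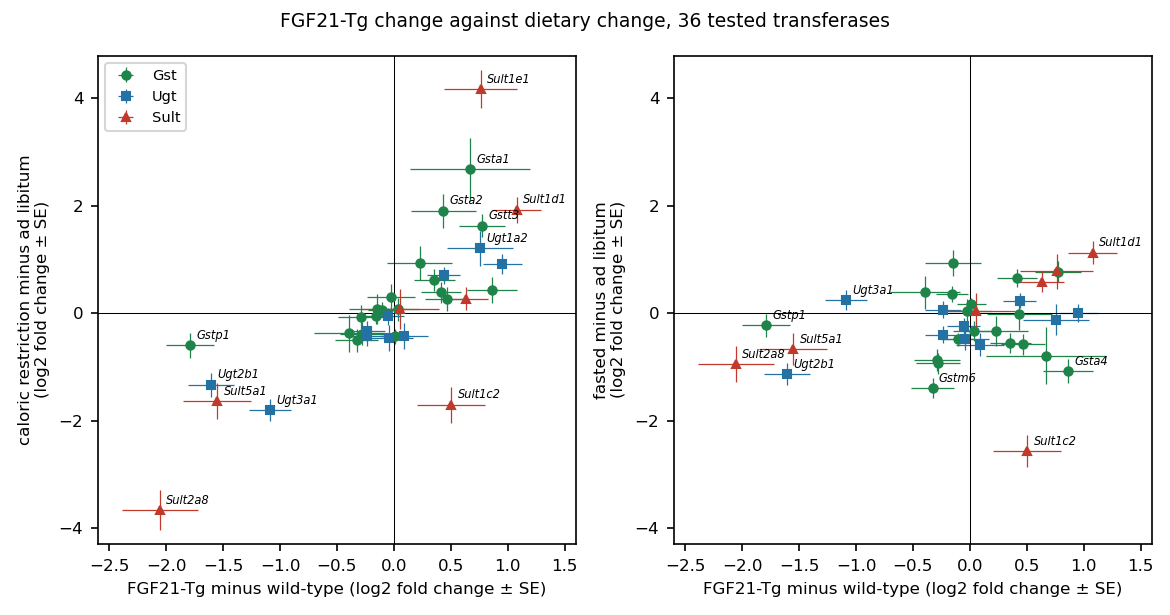
Log2 fold change in FGF21-Tg liver (x axis) against that under caloric restriction (left y axis) and after fasting (right y axis) for the 36 tested members, with standard errors as bars; names mark members called in either comparison of a panel. In the left panel 30 members lie in the quadrants of equal sign, with Sult1c2 furthest from them, and in the right panel 20.

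Whether a change differed in size between FGF21-Tg and restriction was tested as a difference of the 2 effects, which passed the threshold in 5 members (7.39% of all genes), 2 upward (4.68%) and 3 downward (2.71%). Gsta2 responded less in FGF21-Tg mice (-1.48, SE 0.43, limma adjusted p = 0.053). So did Sult1e1 (limma adjusted p = 0.00132), whose size of difference is not given because it was not detected on any wild-type or ad libitum array. Sult1c2 differed by 2.21 (SE 0.45, limma adjusted p = 0.0131), being at 9.20, 9.97 and 8.97 in FGF21-Tg and 8.88, 8.93 and 8.82 in wild-type liver. Sult2a8 fell less in FGF21-Tg mice by 1.61 (limma adjusted p = 0.0678). Gstp1 fell more by a difference of -1.20 (limma adjusted p = 0.0377), a value that the array ceiling limits on the probe used. The other 2 probes of Gstp1, with mean signals of 10.21 and 13.81, gave -1.52 and -1.96 in FGF21-Tg liver. Under restriction they gave -0.61 and -0.36. Calls of Gsta2, Gstp1 and Sult2a8 were lost without restriction replicate 1. That of Gsta2 was also lost without restriction replicate 2, ad libitum replicate 1 or FGF21-Tg replicate 3, each left out alone. Those of Gstp1 (-1.03) and Sult2a8 (1.34) were also lost with the chip as a block and with only arrays that share a chip. The call of Sult2a8 was lost in 14 of 27 other settings in all. With the deposited log2 values Gstp1 alone was called. For Sult5a1 the 2 effects differed by 0.08, with a 95% confidence interval of -0.88 to 1.04, and for Ugt2b1 by -0.28, with an interval of -0.92 to 0.37.

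Between FGF21-Tg and fasting 7 members differed (6.74% of all genes), 4 with a higher (4.06%) and 3 with a lower effect (2.68%) in FGF21-Tg mice (1 and 2 with the deposited log2 values). Sult1c2 (3.07, limma adjusted p = 0.000886), Gsta4 (1.94, adjusted p = 0.00235), Gstm6 (1.07, adjusted p = 0.0316) and Gstm5 (1.05, adjusted p = 0.0374) had the higher effect. Gstp1 (-1.56, adjusted p = 0.00739), Ugt3a1 (-1.33, adjusted p = 0.00978) and Gstt2 (-1.08, adjusted p = 0.0772) had the lower effect. The calls of Gstm5 and Gstm6 were lost without FGF21-Tg replicate 1 or wild-type replicate 3, and that of Gstt2 in 16 of 28 other settings. Without background correction Gstm5 (0.83), Gstm6 (0.96) and Gstt2 (-0.885) were not called. For Sult1d1 the 2 effects differed by -0.05, with a 95% confidence interval of -0.70 to 0.61.

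Several of the responding genes are neighbours. In the RefSeq annotation, Ugt2b34, Ugt2b1, Ugt2b35 and Ugt2b36 begin a run of members on chromosome 5 that ends with Sult1b1, Sult1d1 and Sult1e1, and Gsta4, Gsta1 and Gsta2 lie on chromosome 9. Within the chromosome 5 run the changes went both ways, since Ugt2b1 fell while Sult1d1 rose in all 3 comparisons. The 250 bases before the RefSeq start site are shown for the 2 members called in all 3 comparisons and for the other 3 of the 4 members that rose furthest under restriction, with build GRCm38.p6. Capitals mark a match, on either strand, to TTCNNNGAA (a STAT5-type site) or GCGTG (the core of the xenobiotic response element).
Sult1d1 (chr5:87569007-87569256, minus strand): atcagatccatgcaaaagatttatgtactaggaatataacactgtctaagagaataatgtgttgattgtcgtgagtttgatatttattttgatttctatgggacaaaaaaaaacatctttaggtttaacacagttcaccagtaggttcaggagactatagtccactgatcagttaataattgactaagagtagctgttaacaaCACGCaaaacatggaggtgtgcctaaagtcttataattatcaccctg
Ugt2b1 (chr5:86926504-86926753, minus strand): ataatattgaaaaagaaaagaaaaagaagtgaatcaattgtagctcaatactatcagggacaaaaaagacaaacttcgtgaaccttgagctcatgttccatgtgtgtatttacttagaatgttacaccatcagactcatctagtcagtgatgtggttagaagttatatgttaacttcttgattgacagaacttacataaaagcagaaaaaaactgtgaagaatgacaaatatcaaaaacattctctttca
Sult1e1 (chr5:87591612-87591861, minus strand): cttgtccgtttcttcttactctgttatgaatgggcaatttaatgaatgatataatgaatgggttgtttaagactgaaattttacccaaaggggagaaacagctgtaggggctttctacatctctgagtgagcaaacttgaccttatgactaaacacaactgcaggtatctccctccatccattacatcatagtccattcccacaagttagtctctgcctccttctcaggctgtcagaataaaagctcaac
Gsta1 (chr9:78230419-78230668, plus strand): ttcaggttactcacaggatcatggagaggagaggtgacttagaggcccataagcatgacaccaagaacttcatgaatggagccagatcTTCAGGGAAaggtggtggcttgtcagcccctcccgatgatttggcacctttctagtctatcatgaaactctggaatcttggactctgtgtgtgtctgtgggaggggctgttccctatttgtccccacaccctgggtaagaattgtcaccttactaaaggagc
Gsta2 (chr9:78347146-78347395, minus strand): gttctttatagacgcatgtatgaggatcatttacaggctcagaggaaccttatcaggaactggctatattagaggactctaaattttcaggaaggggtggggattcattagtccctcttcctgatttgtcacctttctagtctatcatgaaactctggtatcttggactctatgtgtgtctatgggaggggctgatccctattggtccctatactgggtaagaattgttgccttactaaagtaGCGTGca

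The Sult1d1 promoter holds 1 GCGTG match that begins 47 bases before the start, the Gsta2 promoter 1 that begins 7 bases before it, and the Gsta1 promoter 1 TTCNNNGAA match that begins 162 bases before it. The windows of Sult1e1 and Ugt2b1 hold none of the motifs searched. Gsta1 and Gsta2, which rose together under restriction, share 198 of 272 aligned positions (72.8%) in this window, while the other 9 pairs of these 5 promoters share 49.0 to 55.7%. Of the 49 members 45 had a RefSeq promoter. Among them 4 held TTCNNNGAA (8.13% of all genes), 9 held GCGTG (30.9% of all genes) and 2 held TGACNNNGC, the core of the antioxidant response element (11.5% of all genes). None held the direct repeat 1 element of nuclear receptors (0.0407% of all genes) or the HNF1 motif (0.0111% of all genes). A match describes letters in the window and is not a measured binding site.

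At baseline the members were compared among liver, muscle (gastrocnemius) and adipose tissue (epididymal) of wild-type mice, with 3 arrays each and 36 members tested among 9955 genes. In liver against muscle, 29 members were higher (21.9% of all genes) and 3 lower (25.2%), together 47% of all genes. Against adipose tissue 27 were higher (15.9%) and 4 lower (22.1%), together 38.1% of all genes. Of the members higher in liver, 15 of 29 were not detected in muscle and 8 of 27 not in adipose tissue, and 8 members were detected in liver alone, so that they could be tested only through liver. Of the members lower in liver, Ugt8a could be tested only through muscle, and Sult1e1 and the Gsto2 probe only through adipose tissue. The counts are therefore a description of where the members were detected. Muscle arrays were on a chip of their own, so chip and tissue cannot be told apart there.

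All tested Ugt1a, Ugt2 and Ugt3a members were higher in liver than in either other tissue. For Ugt1a2, Ugt2a3, Ugt2b1, Ugt2b34, Ugt2b35 and Ugt3a1, detected in liver alone, this outcome was set by the detection filter. None of the 4 tested Ugt2b members was detected in muscle, where liver was at least 34.6-fold (Ugt2b34) to at least 542.5-fold (Ugt2b36) higher. In adipose tissue Ugt2b36 was detected on 1 array, and against the other 3 members liver was at least 41.6-fold (Ugt2b34) to at least 171.8-fold (Ugt2b1) higher. Ugt3a2, which in human uses UDP-glucose and UDP-xylose, read 14.58, 14.75 and 14.62 in liver, was not detected in muscle and read 5.82, 8.29 and 6.59 in adipose tissue. It was at least 422.5-fold higher in liver than in muscle (limma adjusted p = 6.53e-08). Sult2a8 read 13.55, 13.50 and 13.88 in liver and was not detected in either other tissue, at least 210-fold above muscle and at least 253-fold above adipose tissue. Adipose replicate 2, on which Ugt3a2 and Ugt2b36 (6.89) were highest among the adipose arrays, also had a mean hepatocyte-marker signal of 7.40, against 5.28 and 5.16 on the other 2. The part of liver RNA in these adipose values was not tested. Ugt1a10 was detected in adipose tissue at 10.50, 10.96 and 10.79, below its 13.33, 13.32 and 13.33 in liver, and was not detected in muscle.

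**Figure D5:**
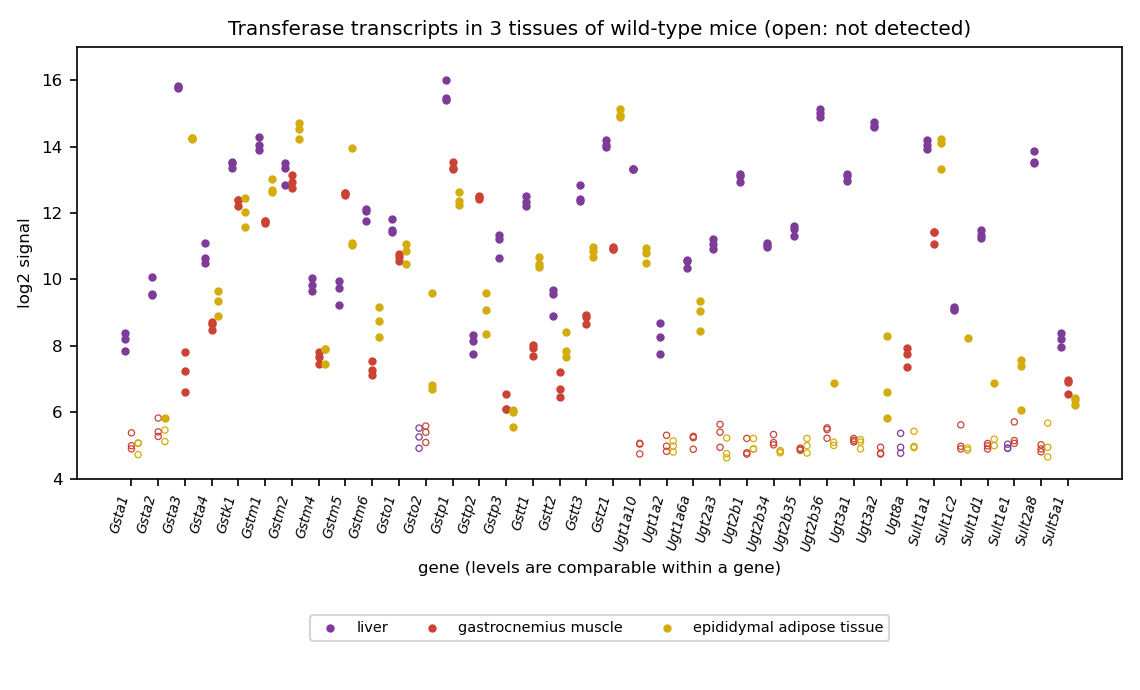
Log2 signal (y axis) of the 36 members tested across tissues (x axis) on each of 3 arrays per tissue (liver, gastrocnemius, epididymal adipose) of wild-type mice; open points were not detected. Most Ugt members are near 5, the level of undetected probes, in muscle, while Gstm5 and Gstp2 are lowest in liver.

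Gst members were spread more widely over the tissues. Gsta3 read 15.76, 15.81 and 15.78 in liver, 7.82, 7.25 and 6.60 in muscle and 14.27, 14.23 and 14.26 in adipose tissue. It was higher in liver than in both other tissues, with a liver signal near the ceiling of the arrays. Gstz1, which isomerizes maleylacetoacetate in tyrosine breakdown, read 14.21, 14.06 and 13.99 in liver, 10.96, 10.92 and 10.93 in muscle and 14.90, 15.14 and 14.94 in adipose tissue. Gstp2 was lower in liver (7.74, 8.16 and 8.34) than in muscle (12.50, 12.41 and 12.52), a log2 difference of -4.40 (limma adjusted p = 4.42e-07), whereas Gstp1 was higher in liver than in muscle, with a liver signal near the ceiling. How far the near-identical Gstp1 and Gstp2 transcripts bind the same probes was not tested.

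Gstm5 of the mu class was lower in liver (9.96, 9.74 and 9.22) than in muscle (12.59, 12.54 and 12.61) and adipose tissue (13.97, 11.04 and 11.10). Adipose replicate 1 stood apart for Gstm5, for the omega-class Gsto2 (9.60, against 6.71 and 6.82), for Sult1c2 (8.23, not detected on the other 2) and for Gstt4 (11.21, not detected on the other 2). On that array 1 of 3 epididymis markers was detected and their mean was 6.16, against 5.13 and 5.15 on the other 2, and its part in these values was not tested. Without it Gstm5 was still lower in liver by a log2 difference of -1.43, and Gsto2 was still called. The Gsto2 probe used was not detected in liver or muscle and could be tested only through adipose tissue. Ugt8a, which makes the galactosylceramide of myelin, was detected on all 3 muscle arrays (7.93, 7.36 and 7.75). It was detected on none of the wild-type liver or adipose arrays and could be tested only through muscle. Sult1e1 was not detected in wild-type liver or muscle and read 7.41, 6.08 and 7.59 in adipose tissue, at least 1.75-fold higher there than in liver. It could be tested only through adipose tissue, so this describes where it was detected. The fourth member lower in liver than in adipose tissue, Gstm2 (-1.26), was not called under median scaling (-0.44). With the deposited log2 values Sult1e1, Gsto2 and Ugt8a were not called, nor was Sult1e1 without background correction.

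The 13 members not tested in liver were Gsto2, Gstt4, Sult1b1, Sult1c1, Sult2a6, Sult3a1, Sult4a1, Ugt2a1, Ugt2a2, Ugt2b37, Ugt2b38, Ugt2b5 and Ugt8a. Gsto2 and Ugt8a were each detected on 1 of the 14 liver arrays and the other 11 on none. No call was made for Gstk1, Gstz1, Ugt2a3, Ugt2b36, Ugt3a2, Sult1a1 or the barely detected Sult2b1 in any of the 3 liver comparisons, and their log2 fold changes lay between -0.43 and 0.63.

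Genes around the conjugation step were counted against the shares of all genes called, 1.7% in FGF21-Tg mice, 8.59% under restriction and 5.48% after fasting. Of 6 tested genes for glutathione supply or breakdown, 1 rose under restriction and 1 rose and 1 fell after fasting, with 0 called in FGF21-Tg mice. The gene that fell was Chac1 (-1.73), which degrades glutathione. Cth, which makes cysteine, had log2 fold changes of 0.00 in FGF21-Tg liver (not called), 1.68 under restriction and 1.22 after fasting. Of 3 genes for UDP-glucuronic acid supply, 0 were called in any comparison (limma), and 1 passed at an adjusted p under 0.10 alone, Ugp2 after fasting at -0.61. Of 5 PAPS supply genes, 1 fell under restriction, the sulfate transporter Slc26a1 (-1.10), and 1 after fasting, the PAPS synthase Papss1 (-1.26). Of 3 deconjugating enzymes, the arylsulfatase Arsa fell in FGF21-Tg mice (-1.22). Of 5 conjugate exporters, the organic anion transporter Slc22a7 fell under restriction (-1.41) and after fasting (-1.28). Among 14 other detoxifying enzymes, 0 were called in FGF21-Tg, 3 rose and 1 fell under restriction and 2 rose and 1 fell after fasting. Under restriction and after fasting, the quinone reductase Nqo1 was at 1.27 and 1.20 and the carbonyl reductase Cbr1 at 2.06 and 1.18. The ascorbate synthesis enzyme Gulo was at -1.13 and -1.11. The microsomal glutathione transferase Mgst3 rose under restriction (1.47) and was not called after fasting (-0.61).

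Of 12 sensors and regulators, 0 were called in FGF21-Tg liver, 2 rose and 1 fell under restriction (3.7% and 4.9% of all genes) and 1 rose after fasting (2.24% of all genes). The xenobiotic receptor Nr1i2 (PXR) rose by 1.34 under restriction (limma adjusted p = 0.00112), and the related Nr1i3 (CAR) by 1.46 after fasting (adjusted p = 0.000691). Cux2, a transcription factor that is female-biased in mouse liver, rose by 5.25 under restriction (adjusted p = 0.000322), and Bcl6, a male-biased repressor, fell by 1.99 (adjusted p = 0.0751). In FGF21-Tg liver Cux2 had a log2 fold change of 2.17 and was not called.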

How the data were processed

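RNA of liver, of muscle (gastrocnemius) and of adipose tissue (epididymal) had been labelled as cRNA and hybridized to Illumina MouseRef-8 arrays. The authors deposited a raw table of bead intensity with a detection p-value for each probe and array (25697 probes, 48 arrays). A second table holds the authors' deposited log2 values of the same arrays, which rank the probes of each array as the raw table does (rank correlation of at least 0.996). BeadStudio is named for the export, without a version.

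Of the 48 arrays 20 were used here, 14 of liver and 3 each of muscle and adipose tissue, plus wild-type liver in the tissue fit. Raw medians were 182 to 265, and 42 to 56.3% of probes were detected. Arrays have no read depth, so precision is set by how many arrays there are. Background was corrected with normexp from the detection p-values (offset 16), followed by quantile normalization and log2 (limma 3.58.1, R 4.3.3). Probes had to be detected at p under 0.05 on at least 3 arrays, and the brightest probe stood for a gene. Of the 49 members, 14 have several of the 67 probes. Groups were compared with lmFit and eBayes in 1 fit over all liver arrays, with Benjamini-Hochberg adjustment over all tested genes, in place of the significance analysis of microarrays named in the methods. A change was called at an adjusted p under 0.10 and over 2-fold. A group not detected on any array gives a bound ("at least"), computed against the lowest detected signal. Means at or above 15.5 were treated as near the ceiling. The pipeline was tested on simulated data. Nothing in the sources says that replicates came from separate experiments beyond their pooled mice, so p-values measure the spread between arrays.

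Members called in any of 3 liver comparisons were named, with the brightest other member of each subfamily. Gstm2, Gstm3, Gstm5, Gsto2, Gstp2, Gstt2, Gstt4, Ugt1a6a, Ugt2b34, Ugt2b35 and Ugt8a were named after their values were seen. The members and all lists were chosen with earlier results of these data known. Promoters are from RefSeq (GRCm38.p6), for 45 of 49 members. Other background corrections, scalings, filters, blocks and sets of arrays were tried.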

Additional observations from a re-analysis of the deposited data

How the results depend on the processing

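Single called members were repeated under other settings. The repeats include the tissue comparisons and the setting with no fold minimum, which cannot lose a call. Of all repeats, 2077 kept direction and call, 132 kept only the direction and 7 reversed. All 7 came from fitting all 16 liver arrays, including the 2 that carried Adipoq: Gsta2 -0.65, Gstt3 -0.31, Sult1d1 -1.77 and Ugt1a2 -0.93 under restriction, Gsta2 -0.63 and Ugt1a2 -0.81 for restriction against fasting, and Gsta2 1.08 for the FGF21-Tg effect minus that of restriction. With these 16 arrays 1 member was called in FGF21-Tg liver (6 otherwise) and 1 after fasting (5 otherwise). For the FGF21-Tg effect minus that of restriction 1 was called (5 otherwise), and minus that of fasting 0 (7 otherwise, limma).

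With the deposited log2 values, 6 instead of 11 members were called under restriction, 3 instead of 5 after fasting, 4 instead of 9 for restriction against fasting, and 1 and 3 for the FGF21-Tg effect minus that of restriction and of fasting. Without background correction the last count was 4. Median scaling gave 15 for restriction against fasting (13 higher and 2 lower) and moved the median of all genes there to 0.18. With no fold minimum 17 members passed under restriction, 16 after fasting and 21 for restriction against fasting. For the FGF21-Tg effect minus that of restriction, 3 passed at an adjusted p under 0.05, 3 with the chip as a block and 3 with only arrays that share a chip. Using only such arrays, the FGF21-Tg comparison had 3 arrays against 1 and kept none of its calls. The cause of these shifts was not tested.

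Leaving out each array in turn gave 5 to 7 calls for FGF21-Tg, 10 to 12 for restriction, 4 to 6 for fasting, 7 to 12 for restriction against fasting, 2 to 6 and 4 to 9 for the FGF21-Tg effect minus that of restriction and of fasting, 32 for liver against muscle and 31 to 32 against adipose tissue. The count of 2 came without restriction replicate 1, and the count of 4 without FGF21-Tg replicate 1 or wild-type replicate 3. With the replicate number as a block 6 members were called in FGF21-Tg liver, and the other counts stayed as they were. Samples of the same number deviated together only with correlations of -0.05 to 0.12, so the numbers do not pair them. Dim members have little signal over background, and bright ones are limited by the ceiling.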
